A study of Mus musculus with 8 samples.

Results

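Pan-endothelial identity genes are expressed by endothelial cells (ECs) of most vessels and are used to recognise this cell type. The 9 genes described here were listed by symbol, with earlier results of these data known, and each symbol matched 1 of the 49315 gene identifiers in the count files. They comprise the surface proteins *Pecam1*, *Emcn* and *Esam*, the secreted protein *Egfl7*, and the transcription factors *Tal1*, *Lyl1*, *Gata2*, *Lmo2* and *Mef2c*. Brain ECs of 4 mutant and 4 wild-type mouse pups were compared by RNA sequencing at postnatal day 9, after tamoxifen at day 1. Mutant pups carried *R26*GT-Map2k1-GFP/+ and *Tg-Cdh5CreER*+/-, so tamoxifen switched on the K57N form of MAP2K1, which is always active, from a *Rosa* transgene in cells that use the *Cdh5* promoter. Control pups are labelled Wild type and were treated with tamoxifen in the same way, although a supplementary heading of the study describes the control as a *Tg-Cdh5CreER*+/- pup. Both mouse strains had been backcrossed to C57BL/6J. According to the study only a minority of the brain ECs of a mutant pup carried the recombined allele, so each mutant library is a mixture of recombined and non-recombined cells. ECs were captured with beads against CD31, which is the protein encoded by *Pecam1*.

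PECAM1 is an immunoglobulin-like adhesion protein of EC contacts, ESAM is an adhesion protein of the tight junction, and EMCN (endomucin) is a sialomucin of the luminal surface that is richer in capillaries and veins than in arteries. EGFL7 is secreted by ECs into their matrix. TAL1 and LYL1 are closely related basic helix-loop-helix proteins that bind DNA together with an E protein, and LMO2 is a LIM-only adaptor that joins them through LDB proteins to a GATA factor such as GATA2. This complex is needed for the origin of blood, and its members are used by blood cell precursors as well as by ECs. MEF2C is a MADS-box factor of ECs, muscle, neurons and microglia.

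Between 24833373 and 34196955 reads per library were counted on genes. Normalized counts below are counts scaled to a common library size by the TMM method of edgeR, errors are SD with n = 4 libraries per group, and a gene was called at a Benjamini-Hochberg adjusted p under 0.05 in edgeR's quasi-likelihood test over all 16887 genes tested. All adjusted p-values below come from this test. *Map2k1*, which checks the labels because reads of the transgene count with it, was between 12660 and 18687 normalized counts in mutant libraries and between 1502 and 1758 in wild-type libraries. All 9 identity genes passed the filter on low counts, with at least 309 reads in every library.

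Of the 9 genes, *Pecam1*, *Emcn* and *Mef2c* were higher in mutant ECs, *Lmo2*, *Tal1*, *Lyl1* and *Gata2* were lower, and *Egfl7* and *Esam* did not pass the test. The 7 called genes compare with 44.4% of all genes tested, made up of 21.5% higher and 22.9% lower. The study also required an absolute log2 fold change over 1, and with this limit only *Lmo2*, a fall, was called, against 14.0% of all genes tested (5.90% higher and 8.05% lower). The median log2 fold change was -0.18 over the 9 genes and -0.02 over all genes tested. The same 7 genes were those whose groups had separate ranges, as had 42.5% of all genes tested (20.6% higher and 21.9% lower). In whole populations of captured cells, fewer cells that express a gene and less RNA of it per cell cannot be told apart. The parts of recombined and of non-recombined cells in each difference were not tested.

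**Figure D1:**
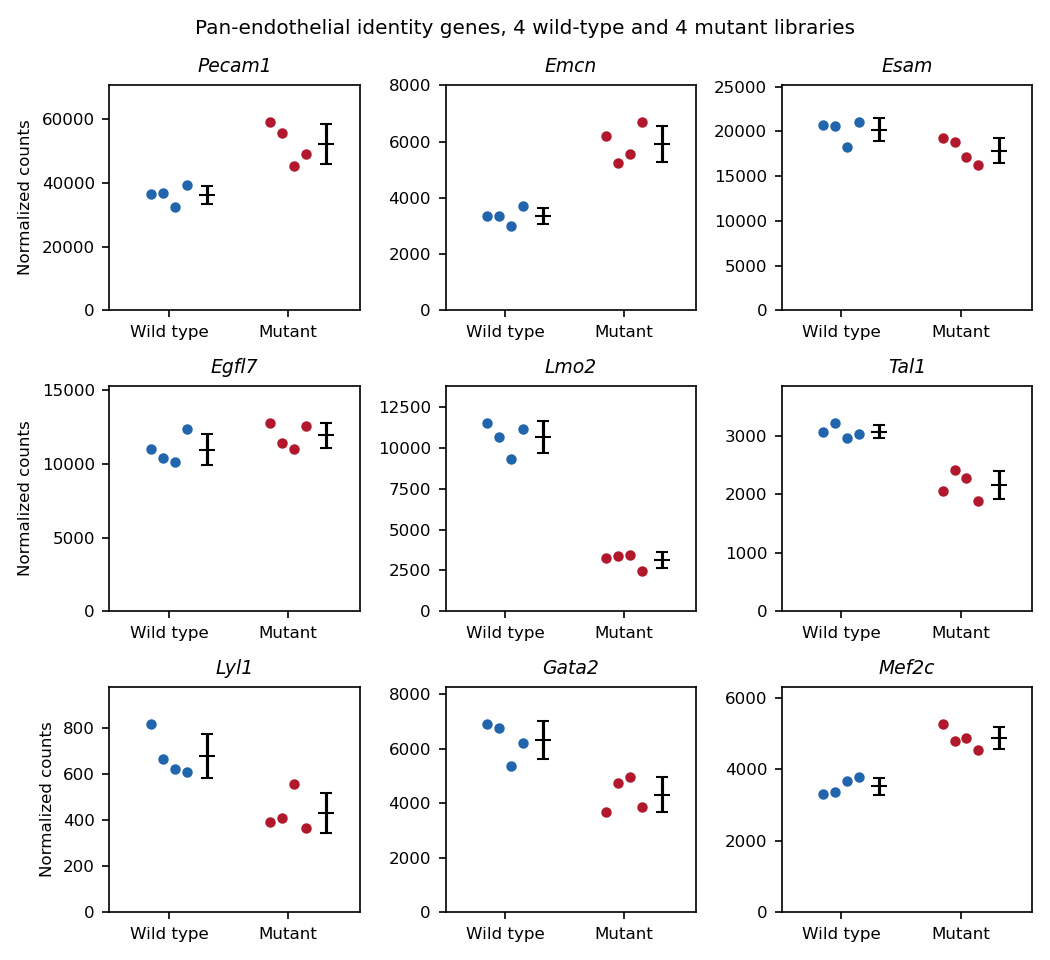
Normalized counts (y axis, linear from 0) of the 9 identity genes in the 4 wild-type (blue) and 4 mutant (red) libraries, with the mean and SD of each group as a black bar. *Lmo2* fell from 10662 to 3140, *Pecam1*, *Emcn* and *Mef2c* lay higher in every mutant library, and *Egfl7* and *Esam* overlapped between the groups.

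*Pecam1* (ENSMUSG00000020717) is located on chromosome 11 (minus strand, 106654217 to 106750628 in GRCm38, the build of all gene positions here). It had 58996, 55576, 45195 and 49158 normalized counts in mutant libraries 1 to 4, and 36600, 36650, 32444 and 39332 in wild-type libraries 1 to 4. No wild-type library reached the lowest mutant library, with means of 52231 ± 6216 and 36256 ± 2844. This is a 1.44-fold difference (log2 fold change 0.53, standard error 0.10, adjusted p = 0.00196). Since the beads select cells by the protein of this gene, its level is not independent of the capture, and the part of the capture in this difference was not tested.

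*Emcn* (ENSMUSG00000054690), on the plus strand of chromosome 3 from 137341067 to 137432185, showed the largest rise of the 9 genes. Mutant libraries 1 to 4 held 6200, 5256, 5554 and 6692 normalized counts. Wild-type libraries held 3350, 3366, 2988 and 3700. The groups were well apart, by 1.77-fold in the fit (log2 fold change 0.82, standard error 0.09, adjusted p = 9.54e-05). The 95% confidence interval of the log2 fold change ran from 0.61 to 1.03.

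*Esam* (ENSMUSG00000001946), on the plus strand of chromosome 9 from 37528078 to 37538319, had 19263, 18792, 17091 and 16228 normalized counts in mutant libraries and 20729, 20622, 18253 and 21020 in wild-type libraries. The groups overlapped through wild-type library 3, which lay below the other wild-type libraries. Its log2 fold change was -0.18 (95% interval -0.36 to 0.01, adjusted p = 0.108), so a level between 78.0% and 101% of wild type is covered. *Esam* was called lower when libraries were scaled by their totals alone (log2 fold change -0.23, adjusted p = 0.0154) or by upper quartiles (-0.24, adjusted p = 0.0181), and when genes averaging under 100 normalized counts were left out (-0.19, adjusted p = 0.0422).

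*Egfl7* (ENSMUSG00000026921), on the plus strand of chromosome 2 from 26580014 to 26593120, had 12755, 11425, 10984 and 12529 normalized counts in mutant libraries. Its wild-type libraries held 11011, 10369, 10094 and 12389, so the groups overlapped along most of their range. The log2 fold change was 0.12 (95% interval -0.07 to 0.31, adjusted p = 0.283), which covers a level between 95.2% and 124% of wild type. The gene also hosts a microRNA that is abundant in ECs. The mature sequence of its 3′ arm, from RefSeq on GRCm38.p6, lies at chr2:26591402-26591423 on the plus strand and is shown because it is nested in this member, with the seed (bases 2 to 8) in capitals.
mmu-miR-126a-3p: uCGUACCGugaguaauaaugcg
The microRNA itself is not measured by these poly(A) libraries, and its gene *Mir126a* had 0 counts. Of the exon bases of *Egfl7*, 11.2% are shared with other annotated genes, including *Mir126a*, *Mir126b*, *Gm20532* and *Agpat2*. The handling of reads in such shared bases is not stated. The other 8 genes shared at most 4 exon bases with another gene.

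*Lmo2* (ENSMUSG00000032698), on the plus strand of chromosome 2 from 103957986 to 103981878, showed the largest change of the 9 genes in either direction. Mutant libraries 1 to 4 held 3247, 3398, 3462 and 2452 normalized counts, and wild-type libraries 11499, 10662, 9322 and 11163. The highest mutant library was below the lowest wild-type library by more than the whole range of either group. The mean fell from 10662 ± 957 to 3140 ± 467, which is 29.4% of the wild-type level (95% interval 24.6% to 35.3%). On the log2 scale the fold change was -1.76, with a standard error of 0.12 and an adjusted p = 4.17e-06. *Lmo2* also passed a test against a log2 fold change of 1 (glmTreat of edgeR, adjusted p = 0.000375).

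*Tal1* (ENSMUSG00000028717), on the plus strand of chromosome 4 from 115056426 to 115071755, had 2054, 2419, 2278 and 1886 normalized counts in mutant libraries and 3073, 3219, 2962 and 3028 in wild-type libraries. All mutant libraries were lower, and the mean stood at 70.3% of the wild-type level (log2 fold change -0.51, standard error 0.08, adjusted p = 7.10e-04). Its relative *Lyl1* (ENSMUSG00000034041), on the plus strand of chromosome 8 from 84701457 to 84704715, was the least abundant member in normalized counts. It held 390, 410, 558 and 365 in mutant libraries and 816, 663, 622 and 607 in wild-type libraries. The groups did not overlap, although mutant library 3 came close to the wild-type range. *Lyl1* stood at 63.6% of the wild-type level (log2 fold change -0.65, standard error 0.15, adjusted p = 0.00512).

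*Gata2* (ENSMUSG00000015053), on the plus strand of chromosome 6 from 88193891 to 88207032, had 3685, 4742, 4960 and 3864 normalized counts in mutant libraries. Wild-type libraries held 6894, 6735, 5357 and 6209. The gap between the groups was narrow, between mutant library 3 and wild-type library 3. *Gata2* stood at 68.5% of the wild-type level (log2 fold change -0.55, standard error 0.12, adjusted p = 0.00344). The falls of *Tal1*, *Lyl1* and *Gata2* were thus of like size, with 95% intervals of the log2 fold change of -0.69 to -0.33, -0.98 to -0.32 and -0.80 to -0.29. The interval of *Lmo2*, from -2.02 to -1.50, did not overlap any of them.

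*Mef2c* (ENSMUSG00000005583), on the plus strand of chromosome 13 from 83504034 to 83667080, was the only transcription factor of the 9 genes to rise. Its mutant libraries held 5265, 4796, 4882 and 4530 normalized counts, and its wild-type libraries 3303, 3359, 3662 and 3794. All mutant libraries were higher, by 1.38-fold in the fit (log2 fold change 0.46, standard error 0.07, adjusted p = 6.37e-04).

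**Figure D2:**
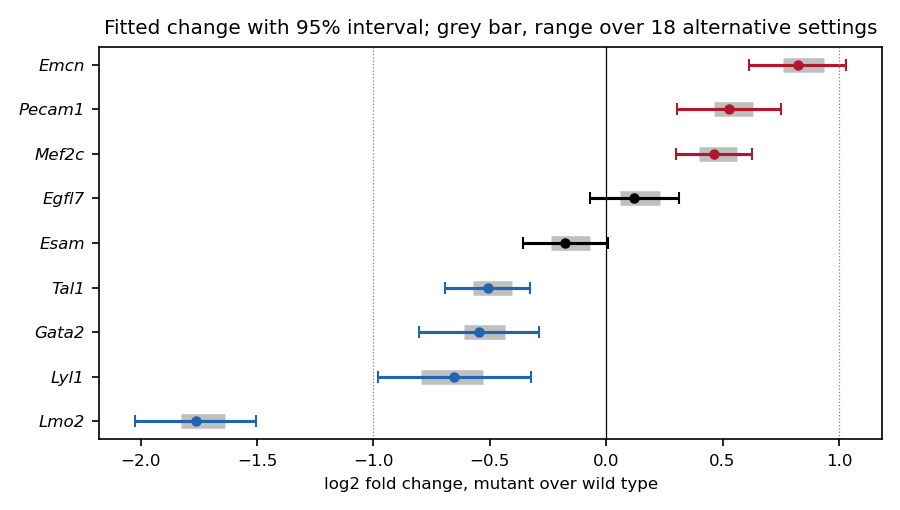
Fitted log2 fold change, mutant over wild type (x axis), of the 9 identity genes (y axis) with its 95% confidence interval, in red for genes called higher, blue for genes called lower and black for genes not called. Grey bars span 18 other settings of the analysis, dotted lines mark log2 fold changes of -1 and 1, and *Lmo2* at -1.76 is the only gene beyond them.

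Promoter sequences of RefSeq (GRCm38.p6, from 250 bases before to 50 bases after an annotated start) were given for 6 of the 9 genes, and none for *Pecam1*, *Esam* and *Lmo2*. Windows of *Tal1* and *Lyl1*, which fell together, and of *Emcn*, which rose, are shown with matches on either strand to GATAA, the core of the GATA motif, and to AGGAAG and CGGAAG, which hold the core of ETS motifs, in capitals. The windows lie on the plus strand at chr4:115056176-115056475, chr8:84701207-84701506 and chr3:137340828-137341127.
Tal1: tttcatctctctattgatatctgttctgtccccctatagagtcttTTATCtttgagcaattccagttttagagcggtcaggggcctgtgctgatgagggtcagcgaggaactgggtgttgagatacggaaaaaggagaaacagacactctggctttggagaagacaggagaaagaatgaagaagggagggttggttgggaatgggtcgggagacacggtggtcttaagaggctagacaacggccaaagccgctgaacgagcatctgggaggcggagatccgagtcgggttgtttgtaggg
Lyl1: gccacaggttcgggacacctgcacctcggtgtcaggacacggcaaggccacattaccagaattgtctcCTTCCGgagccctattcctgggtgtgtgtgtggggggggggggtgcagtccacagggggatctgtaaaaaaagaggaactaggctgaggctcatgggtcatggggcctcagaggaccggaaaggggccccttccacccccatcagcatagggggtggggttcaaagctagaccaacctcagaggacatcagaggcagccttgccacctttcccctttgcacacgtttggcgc
Emcn: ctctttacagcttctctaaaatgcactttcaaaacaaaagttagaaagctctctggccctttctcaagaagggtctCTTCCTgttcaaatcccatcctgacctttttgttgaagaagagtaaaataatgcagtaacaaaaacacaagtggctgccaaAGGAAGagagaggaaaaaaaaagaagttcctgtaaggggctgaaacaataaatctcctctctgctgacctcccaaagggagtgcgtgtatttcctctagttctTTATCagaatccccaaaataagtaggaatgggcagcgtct
Of the 2 *Tal1* windows the first is shown, and it held 1 match to GATAA, while the other held none of these motifs. The *Lyl1* window held 1 match to CGGAAG, and the *Emcn* window 1 match to GATAA and 2 to AGGAAG. Neither of the 2 *Gata2* windows held any of these letters. Only these exact letters were sought, so other forms of GATA or ETS sites are not marked or counted. *Egfl7*, which was not called, held 3 matches to AGGAAG in 1 window, 2 to AGGAAG and 1 to GATAA in another, and none in the last. Each window of *Mef2c*, which rose, held at least 1 match. Matches were thus not confined to genes that changed in 1 direction, and their part in the changes was not tested. Among all 32851 promoter windows, GATAA was found in 25.4%, AGGAAG in 35.4% and CGGAAG in 16.9%. The E-box CANNTG, the kind of site that TAL1 and LYL1 bind with their partners, was found once in each of the printed windows and in 72.3% of all windows.

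Levels of different genes were compared as TMM-scaled CPM, the count relative to library size, per kilobase of exon model. In wild-type ECs the order was *Esam* (237 ± 15.1), *Pecam1* (196 ± 15.4), *Lmo2* (166 ± 14.9), *Egfl7* (103 ± 9.65), *Gata2* (39.4 ± 4.33), *Tal1* (23.7 ± 0.837), *Emcn* (20.9 ± 1.81), *Lyl1* (12.7 ± 1.79) and *Mef2c* (7.58 ± 0.508). The ranges of neighbours overlapped only for *Pecam1* and *Lmo2* and for *Tal1* and *Emcn*. *Mef2c* has the longest exon model, at 15715 bases, which lowers its level on this scale.

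In mutant ECs the order changed to *Pecam1* (283 ± 33.7), *Esam* (210 ± 16.8), *Egfl7* (112 ± 8.05), *Lmo2* (48.9 ± 7.28), *Emcn* (37.0 ± 4.02), *Gata2* (27.0 ± 3.95), *Tal1* (16.6 ± 1.82), *Mef2c* (10.5 ± 0.653) and *Lyl1* (8.08 ± 1.63) on the same scale. Here the ranges overlapped for *Lmo2* and *Emcn* and for *Mef2c* and *Lyl1*. The summed level of the 5 transcription factors lay between 93.4 and 123 in mutant libraries and between 221 and 268 in wild-type libraries, without overlap. Most of that gap came from *Lmo2*. The summed level of the 4 surface and secreted members overlapped, with 584 to 705 in mutant and 504 to 600 in wild-type libraries.

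Ratios of members within a library do not depend on the scaling between libraries. The log2 ratio of *Lmo2* to *Pecam1* per kilobase was between -2.80 and -2.18 in mutant libraries and between -0.29 and -0.15 in wild-type libraries. The same ratio averaged -4.09 against -3.05 for *Tal1*, -5.14 against -3.96 for *Lyl1* and -3.40 against -2.32 for *Gata2*. *Esam* averaged -0.43 in mutant and 0.27 in wild-type libraries, so the order of these 2 adhesion genes was inverted in every library. For 7 of the 8 genes the ratio to *Pecam1* had separate ranges in the groups, lower in mutant libraries for all of them but *Emcn*. Of all other genes tested, 55.4% had such a separate ratio, 50.7% lower and 4.79% higher. The ratio rests on *Pecam1*, which was itself 1.44-fold higher in mutant ECs, and *Egfl7* and *Esam* were separate only in this ratio, not in their own levels. *Mef2c* overlapped, with -4.75 ± 0.143 in mutant and -4.70 ± 0.147 in wild-type libraries.

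The libraries carry 3 label prefixes, each with both groups, whose meaning the labels do not give. According to the study, wild-type pups were picked at random within litters to match the mutant pups of each litter, and the labels do not name the litters. One prefix covers replicates 1 and 2 and the others replicate 3 and replicate 4. The 7 called genes differed in the same direction within each prefix. This had to be so, because their groups had separate ranges, and it adds no support. A single library per group under a prefix allows no test. The log2 difference within prefixes was between -2.19 and -1.43 for *Lmo2*, between -0.68 and -0.38 for *Tal1*, between -0.88 and -0.16 for *Lyl1* and between -0.70 and -0.11 for *Gata2*. It was between 0.32 and 0.64 for *Pecam1*, between 0.77 and 0.89 for *Emcn* and between 0.26 and 0.59 for *Mef2c*. The smallest differences of *Lyl1* and *Gata2* were those of replicate 3.

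Among other genes of EC identity, both directions were again found. Of all genes tested, 21.5% were higher and 22.9% lower, which is the background for this list and those below. Of the 33 other EC genes, all tested, 10 were higher, 14 were lower and 9 did not pass the test, with a median log2 fold change of -0.18. The largest rises were those of *Clec14a*, a C-type lectin of ECs (log2 fold change 1.17, adjusted p = 1.94e-04), *Vwf*, the von Willebrand factor (1.15, adjusted p = 7.42e-05), *Cdh5*, the VE-cadherin gene whose promoter also drives the CreER transgene (1.11, adjusted p = 6.04e-05), and the transcriptional repressor *Bcl6b* (0.99, adjusted p = 1.58e-05). The largest falls were those of the sialomucin *Podxl* (-1.22, adjusted p = 1.02e-04), the transcription factor *Sox17* (-1.20, adjusted p = 8.82e-05), the receptor phosphatase *Ptprb* (-0.77, adjusted p = 6.10e-04) and *Ushbp1* (-0.76, adjusted p = 5.04e-04). The rise of *Emcn* and the fall of *Podxl* concern sialomucins of the same surface. Their relative *Podxl2* fell from 379 ± 91.9 to 91.4 ± 11.8 normalized counts (log2 fold change -2.05, adjusted p = 2.48e-05). The list of relatives and partners of the surface and secreted members, 10 of 11 genes tested, held 1 higher and 5 lower genes, or 3 lower genes without mutant replicate 4 or wild type replicate 2. *F11r*, a junctional adhesion molecule, was higher (0.49, adjusted p = 0.00176), and its relatives *Jam2* (-1.36, adjusted p = 2.28e-05) and *Jam3* (-0.39, adjusted p = 0.0335) were lower. *Egfl8*, the paralog of *Egfl7*, was lower (-0.81, adjusted p = 2.95e-04).

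Partners of TAL1, LYL1, LMO2 and GATA2 moved unequally. Of 16 such genes, 3 were higher and 7 were lower, against 21.5% and 22.9% of all genes tested. The other 6 did not pass the test, and the median log2 fold change was -0.11. Without wild type replicate 3, 5 of the 16 were higher. The adaptor *Ldb2* rose from 532 ± 38.9 to 2413 ± 555 normalized counts (log2 fold change 2.18, adjusted p = 4.77e-06), while *Ldb1* had 5748 ± 344 in wild-type and 5530 ± 287 in mutant libraries (-0.06, adjusted p = 0.548). The E protein gene *Tcf4* was higher (0.70, adjusted p = 2.36e-04), as was *Ssbp3*, whose product binds LDB proteins (0.44, adjusted p = 0.00207). The corepressor *Cbfa2t3*, found in TAL1 complexes, fell from 1976 ± 169 to 743 ± 146 normalized counts (-1.41, adjusted p = 3.41e-05). The ID proteins bind E proteins and keep them from DNA. Their 4 genes were all lower, with log2 fold changes of -0.73 for *Id1*, -0.96 for *Id2*, -0.63 for *Id3* and -1.16 for *Id4* (adjusted p = 0.00427, 0.00374, 0.00291 and 0.00454).

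Paralogs of the transcription factors showed little of this. Of 12 paralogs 6 were tested, and *Lmo4* alone was called, with a log2 fold change of -0.26 (adjusted p = 0.0357). No paralog was called without mutant replicate 4 or without wild type replicate 1, 2 or 4, and 2 were called without mutant replicate 3. *Gata3* (-0.19), *Gata6* (-0.34), *Lmo1* (-0.18), *Mef2a* (0.07) and *Mef2d* (-0.09) had adjusted p between 0.138 and 0.655. *Tal2*, *Gata1*, *Gata4*, *Gata5*, *Lmo3* and *Mef2b* were too low to test. Among 6 regulators of MEF2 proteins, the class IIa deacetylase gene *Hdac9* rose (1.59, adjusted p = 4.49e-04), and *Hdac5* (-1.05, adjusted p = 1.41e-05) and *Hdac7* (-0.43, adjusted p = 0.0165) fell. Without wild type replicate 1 or 2, 1 of these genes was called lower.

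**Figure D3:**
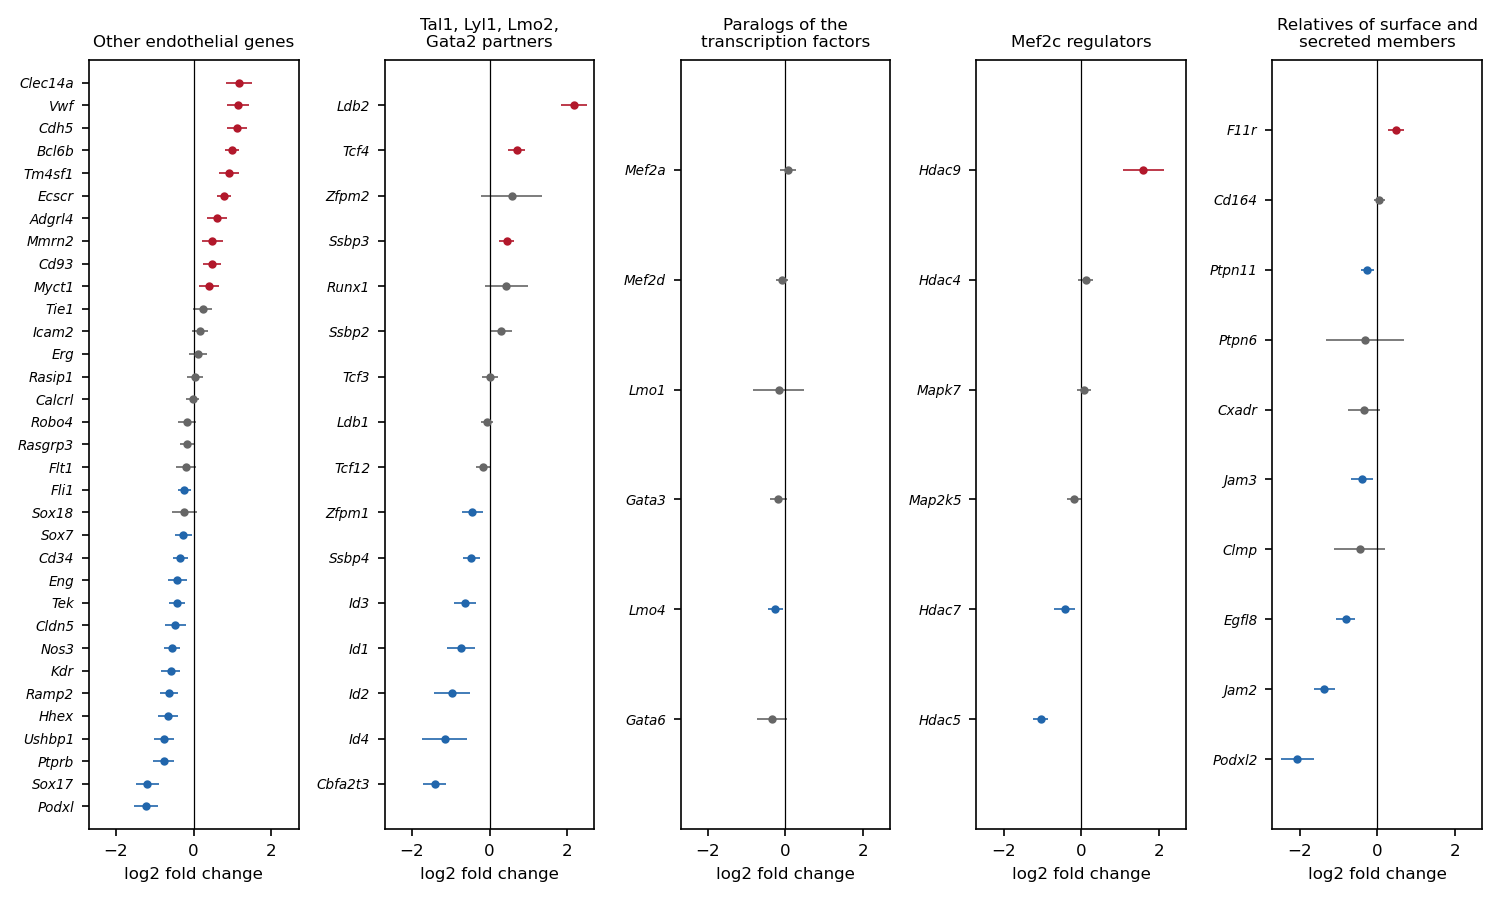
Fitted log2 fold change, mutant over wild type (x axes), of every tested gene (y axes) in the lists around the identity genes, with 95% confidence intervals, in red for genes called higher, blue for genes called lower and grey for genes not called. Other EC genes spread over both sides of 0, *Ldb2* and *Hdac9* stand out on the right, and all 4 *Id* genes and *Cbfa2t3* lie on the left.

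For *Lmo2*, the only member beyond the fold limit, the genes of most similar pattern over the 8 libraries were sought among 11395 genes that averaged 100 normalized counts or more. The nearest were *Fut8*, a fucosyltransferase gene, *Sned1* and *Trmt9b*, with root mean square differences of 0.10, 0.12 and 0.13 in centred log2 CPM. *Fut8* fell from 2754 to 831 normalized counts (log2 fold change -1.73), *Sned1* from 1633 to 534 (-1.61) and *Trmt9b* from 186 to 58.2 (-1.68).

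*Tal1*, *Lyl1*, *Gata2* and *Lmo2* are also expressed in the red cell lineage, and red blood cell genes were lower in the mutant libraries. Of 10 red cell markers 9 were tested, and 7 were lower, among them *Hbb-bs* (log2 fold change -1.69), *Hba-a1* (-1.80) and *Alas2* (-1.41), with adjusted p of 0.00229, 0.00132 and 0.00700. Their summed level in CPM per kilobase was 260, 335, 359 and 110 in mutant libraries 1 to 4 and 1163, 1049, 669 and 695 in wild-type libraries 1 to 4. The groups did not overlap. Within the mutant group, library 3 had the highest red cell sum and the highest *Lmo2*, *Lyl1* and *Gata2*, and library 4 had the lowest sum and the lowest *Lmo2*, *Lyl1* and *Tal1*. *Tal1* was instead highest in library 2, and *Gata2* lowest in library 1. Among mutant libraries, library 3 also had the highest marker sums for microglia and macrophages (241), pericytes (275) and fibroblasts (169). The same held for smooth muscle (75.6) and lymphocytes (9.75), but not for the remaining cell types. Within the wild-type group, library 1 had the highest sum and the highest *Lmo2*, *Lyl1* and *Gata2*, and library 3 the lowest sum and the lowest *Lmo2*, *Tal1* and *Gata2*. *Tal1* was again highest in library 2, and *Lyl1* lowest in library 4. Wild-type library 4 had a sum of 695, near that of library 3. Its *Lmo2*, at 11163 normalized counts, was near that of library 1 (11499) and above that of library 3 (9322). Wild-type library 3 was also the lowest of its group for *Pecam1*, *Emcn*, *Egfl7* and *Esam*. The part of red cells in these falls was not tested. The red cell regulators *Klf1* and *Gata1* had at most 14 and 12 reads in any library and were not tested.

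Other blood lineages that use these factors were low. The mast cell list was too low to test, with summed levels of 0.0479 to 0.222 in mutant and 0.537 to 4.14 in wild-type libraries. Of the megakaryocyte and platelet markers 1 of 7 tested, *Ppbp*, was lower (0 without wild type replicate 2), and the sums overlapped between 7.59 and 13.2 in mutant and 7.41 and 12.1 in wild-type libraries. Neutrophil markers (2 of 7 tested lower, or 1 without any single mutant library or without wild type replicate 2 or 3) and lymphocyte markers (2 of 4 tested lower) had sums of at most 36.1 and 11.6 in any library.

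*Mef2c* is expressed in microglia and neurons too. None of the 9 microglia and macrophage markers was called, and their summed level overlapped, with 60.01 to 241 in mutant and 50.6 to 218 in wild-type libraries. Without wild type replicate 3, which had the highest sum of its group, 5 of these 9 markers were higher in mutant ECs, and *Mef2c* then had a log2 fold change of 0.49 (adjusted p = 0.00183). By library, *Mef2c* was highest in mutant library 1 (5265 normalized counts) and wild-type library 4 (3794), which had the lowest microglia sums of their groups. Mutant library 3 and wild-type library 3, with the highest sums, held 4882 and 3662. Of 7 neuronal markers tested, 4 were lower and none higher (1 higher without wild type replicate 3), with sums of 4.30 to 6.03 in mutant and 7.08 to 14.3 in wild-type libraries. The part of microglia and neurons in the rise of *Mef2c* was not tested.

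**Figure D4:**
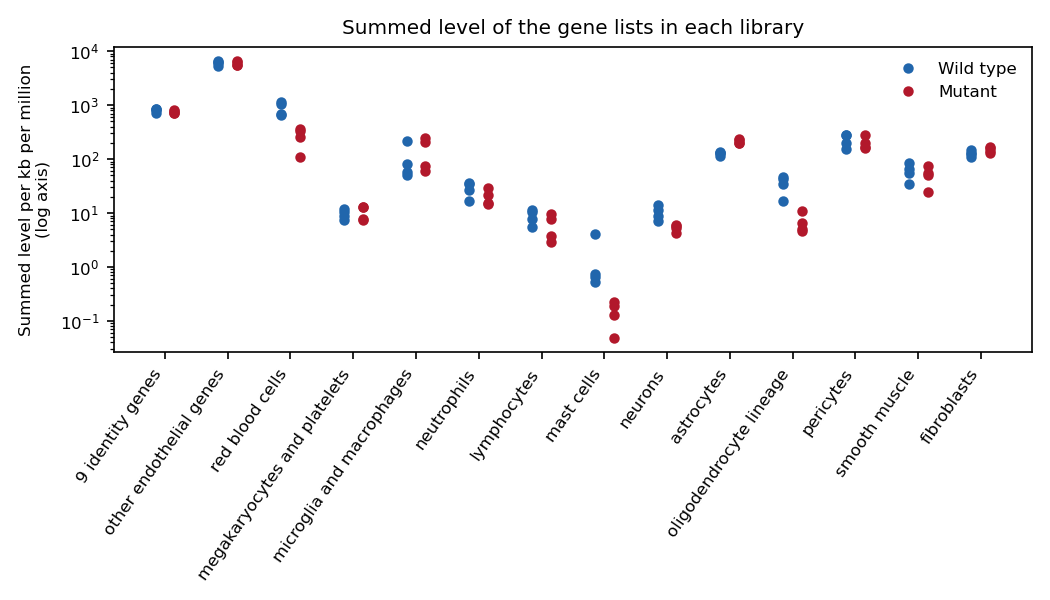
Summed level of each gene list in CPM per kilobase (y axis, log scale) in the 4 wild-type (blue) and 4 mutant (red) libraries, for the 9 identity genes, the other EC genes and markers of 12 other cell types (x axis). The red blood cell sums of wild-type libraries, 669 to 1163, reach those of the 9 identity genes and lie above all mutant sums, while the sums of the identity genes overlap between the groups.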

How the data were processed

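Poly(A) RNA of CD31-captured brain ECs was sequenced in 8 libraries, 1 for each entry of the labels. Raw counts per gene, with the length of each exon model, were deposited by the authors after trimming (Trimmomatic) and alignment to GRCm38 (STAR). The counting program, annotation release and use of strand are not given in the sources used here. A second deposited table holds, for 16889 genes, a signal made by the authors as counts over DESeq2 size factors. With those factors removed, 100% of its values were whole reads (within 0.001) and equal to the counts, so the raw counts were used. Groups and replicate numbers came from the sample titles. Symbols were taken from GENCODE vM21 and matched 48970 of 49315 identifiers.

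Counts were filtered with filterByExpr (minimum count 10), scaled by TMM and compared with glmQLFit and glmQLFTest in R 4.3.3 with edgeR 4.0.16, on 16887 genes. Standard errors were derived from the log2 fold change and its F statistic. Normalized counts are scaled to the mean library size. The study used DESeq2, which is an alternative here (1.42.0), as is voom of limma 3.58.1. Other normalizations, filters, a block for the replicate number or the label prefix, a test against a log2 fold change of 1, and the removal of each library were also tried. Whether same-numbered libraries pair was checked by the correlation of their deviations from the group means over genes, which was 0.20, 0.21, 0.29 and 0.02 for replicates 1 to 4. Between libraries of different number the correlation ranged from -0.36 to 0.38. The study matched the groups within litters, but the labels name no litter, and the value of replicate 4 was low. The numbers were therefore not taken as pairs, and both blocks are alternatives.

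On simulated data with 16887 genes, of which 200 were changed, 121 of 150 genes changed at least 2-fold were called, 18 of 50 changed 1.5-fold, and 8 unchanged genes. In the real data a far larger share, 44.4%, was called, so these rates may not hold there. Libraries of the same group differed by more than sampling noise (chi-square per degree of freedom 7.30 to 41.6). P-values measure the spread between these libraries, 1 per pup according to the study.

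The 9 genes and all lists were chosen with earlier results of these data known. Named from each list were up to 4 genes per direction with the largest fold change among called genes of at least 100 normalized counts, and all paralogs. *Ldb1*, *Id3*, *Klf1*, *Ppbp* and the red cell genes printed were named after their values were seen.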

Additional observations from a re-analysis of the deposited data

Results flagged for a closer look

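Within the groups of 4 libraries, 1 library lay far from the other 3 for 8 of the 162 sets of values checked (81 genes in both groups), where chance gives about 1 in 20. Among the 9 identity genes this concerned only *Esam*, with 18250 normalized counts in wild type replicate 3 and 20620 to 21020 in the other wild-type libraries. The same library was low for *Ramp2* (6450 against 7795 to 8050) and high for *Runx1* (596.8 against 280.2 to 323.4), *Zfpm2* (113.8 against 37.87 to 50.53) and *Clmp* (141.4 against 64.69 to 77.18). Wild type replicate 4 was high for *Rasgrp3* (14910 against 12450 to 12730). Mutant replicate 4 was low for *Ssbp2* (239.6 against 314.3 to 327.1), and mutant replicate 2 was low for *Mapk7* (1811 against 2185 to 2216).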

How the results depend on the processing

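The 3 rises and 4 falls among the identity genes were called under all 10 other settings of tool, scaling, filter and block and with each of the 8 libraries left out, and *Egfl7* was called under none of these 18. *Esam* was called lower with library totals only (-0.23), upper quartile factors (-0.24) and a mean of at least 100 normalized counts (-0.19). With each library left out, the log2 fold change of *Lmo2* stayed between -1.82 and -1.64. Size factors from the other endothelial genes shifted the median of all genes by 0.11 and gave 4316 higher and 2825 lower genes against 3631 and 3873. Of all genes tested, 2356 passed with the fold limit, 1195 with the filter at a mean of at least 100 normalized counts and 736 with glmTreat. With the replicate block, 10 markers of other cell types were higher in place of 6, and *Lmo2* had a log2 fold change of -1.77; the replicate block changed no call of an identity gene. A block for the label prefix gave 4182 higher and 4428 lower genes and left the calls of the 9 identity genes as they were. Without 1 library, the markers of other cell types called higher numbered 3 (without mutant replicate 3 or wild type replicate 1) to 12 (without wild type replicate 3). Antisense or overlapping transcripts cannot be told apart where counting ignored strand.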

Other observations

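Markers of several other brain cells differed between the groups. All 6 oligodendrocyte lineage markers were lower in mutant libraries, with summed levels of 4.69 to 10.8 against 16.7 to 46.7 CPM per kilobase, led by *Olig1* (log2 fold change -2.73, adjusted p = 4.14e-05). The neuronal enzyme gene *Gad1* fell from 178 to 31.9 normalized counts (-2.46, adjusted p = 3.76e-05). It had the largest fall of the 4 neuronal markers called lower among 7 tested. *Rbfox3* of the same list differed in the other direction without being called (log2 fold change 1.185, adjusted p = 0.0515).

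Pericyte markers were called higher for 2 of 7 genes, both subunits of the same potassium channel. *Abcc9* rose from 1006 to 3456 normalized counts (log2 fold change 1.78, adjusted p = 2.36e-04) and *Kcnj8* from 305 to 538 (0.81, adjusted p = 0.0242), while the summed level of the list overlapped between the groups (160 to 275 in mutant and 153 to 281 in wild-type libraries). Of 7 astrocyte markers, *Gja1* was higher (0.80, adjusted p = 1.32e-04) and *S100b* lower (-1.01, adjusted p = 0.0182). *Gja1* was far more abundant than the rest of this list, with means of 211 in mutant and 121 in wild-type libraries in CPM per kilobase. The sum of the whole list averaged 216 and 128, so its higher level in mutant libraries was mostly that of *Gja1*. Among markers not called, *Aqp4*, *Slc1a3*, *Slc1a2* and *Aldoc* had negative log2 fold changes and *Gfap* a positive one. Of 4 smooth muscle markers, *Tagln* was higher (0.73, adjusted p = 0.0367). Of 6 fibroblast markers, *Lum* and *Col1a1* were higher (0.67 and 0.39) and *Col3a1* and *Pdgfra* lower (-0.52 and -1.03), with adjusted p between 5.86e-04 and 0.0319. Without 1 library, 0 to 4 astrocyte markers were lower (4 without mutant replicate 3), 0 smooth muscle markers were higher without mutant replicate 2, 3 or 4 or wild type replicate 1, 2 or 4, 1 of the pericyte markers was higher without mutant replicate 1 or 3 or wild type replicate 1, and 1 of the fibroblast markers was higher without mutant replicate 1 or 3 or wild type replicate 1 or 4. The genes named here were chosen after their values were seen.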
